A study of Mus musculus with 12 samples.

Results

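The 10 genes described here encode the classical MHC class I (MHC-I) molecules of C57BL/6 mice and the machinery that loads them with peptide. They were chosen by name: H2-K1, H2-D1, B2m, Tap1, Tap2, Tapbp, Tapbpl, Erap1, Nlrc5 and Pdia3. All 10 were found among the 45563 gene symbols used from the deposited tables, and all 10 were among the 18081 genes tested. MHC-I molecules show peptides from inside the cell to CD8+ T cells, and they consist of a heavy chain paired with the light chain β2-microglobulin. Peptides made by the proteasome are pumped into the endoplasmic reticulum by the TAP transporter, trimmed there by an aminopeptidase, and fitted into the heavy chain groove by the peptide-loading complex. Glial cells carry little MHC-I at rest, and interferons and TNF are textbook inducers of the pathway.

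RNA-seq was done on oligodendrocyte precursor cells (OPCs), the glial progenitors that give rise to myelinating oligodendrocytes, to learn how TNFR2, a receptor for TNF encoded by Tnfrsf1b, shapes their response to inflammation. The 12 libraries formed 4 groups of 3, with NS and St libraries for each of the WT and TNFR2-/- genotypes. All came from C57BL/6 mice, from OPCs purified from the cortices of pups at postnatal days 2 to 5, selected on PDGFRα, and grown for 3 days in vitro. NS cells were non-stimulated, and St cells received TNF, IFNγ and IL1β together, each at 25 ng/mL, for 3 h. The TNFR2-/- pups are described as germline knockouts, so the genotype applies to every cell type in the culture and not to OPCs alone. Because the 3 cytokines were given together, the part of each cannot be told apart. The replicate numbers are 2, 3 and 4 for WT and 2, 4 and 5 for TNFR2-/-, and values below are given in that order. Nothing in the labels says how many pups or litters a culture pooled. The main fit had no block for culture, so its p-values rest on the spread between these libraries.

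Libraries held between 26886878 and 30335265 read pairs. The 10 OPC markers were detected in every library. Of 10 microglial markers, 8 had at most 9 reads in any library, and the list summed to 7.33 to 11.1 FPKM over the 4 groups. The deposited FPKM did not follow annotated gene length, so sums over a list here and below weigh its genes unequally. In bulk RNA, fewer cells of a type and less RNA per cell cannot be told apart. Tnfrsf1b, the targeted gene, had 12 to 24 reads in WT NS libraries but 213 to 346 in those labelled TNFR2-/- NS. It had 61 to 145 reads in WT St and 282 to 356 in TNFR2-/- St. These reads are counted per gene and do not show which exons they covered, so they check neither the deletion nor the labels, and each genotype difference below rests on the labels as given.

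The cytokines raised 9 of the 10 genes in both genotypes. In WT OPCs the rise ran from 2.62-fold for Erap1, the trimming aminopeptidase, to 302-fold for Nlrc5, the transcriptional activator of MHC-I genes, and only Pdia3, a disulfide isomerase of the loading complex, did not pass the test. Calling a gene required an adjusted p from limma no higher than 0.05 (Benjamini-Hochberg over all genes tested), a change of 1.5-fold or more on the FPKM + 0.5 scale, and a mean no lower than 1 FPKM. By that rule 7.53% of all genes tested were called in WT St against WT NS, and 4.58% were called higher, against 9 of 10 here. In TNFR2-/- OPCs the same 9 genes were called higher, where 10.1% of all genes were called and 5.41% were called higher. The St and NS libraries of a gene did not overlap for 9 of the 10 genes in WT, against 37.7% of all genes, or 13.7% with St higher. In TNFR2-/- this was so for 10 of the 10, Pdia3 with St lower, against 37.3%, or 12.7% with St higher. The median change of the 10 genes was 2.40 in WT and 2.65 in TNFR2-/- on the log2 scale. The medians of all genes tested were -0.05 and -0.11. The plot of FPKM by library shows these levels gene by gene.

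**Figure D1:**
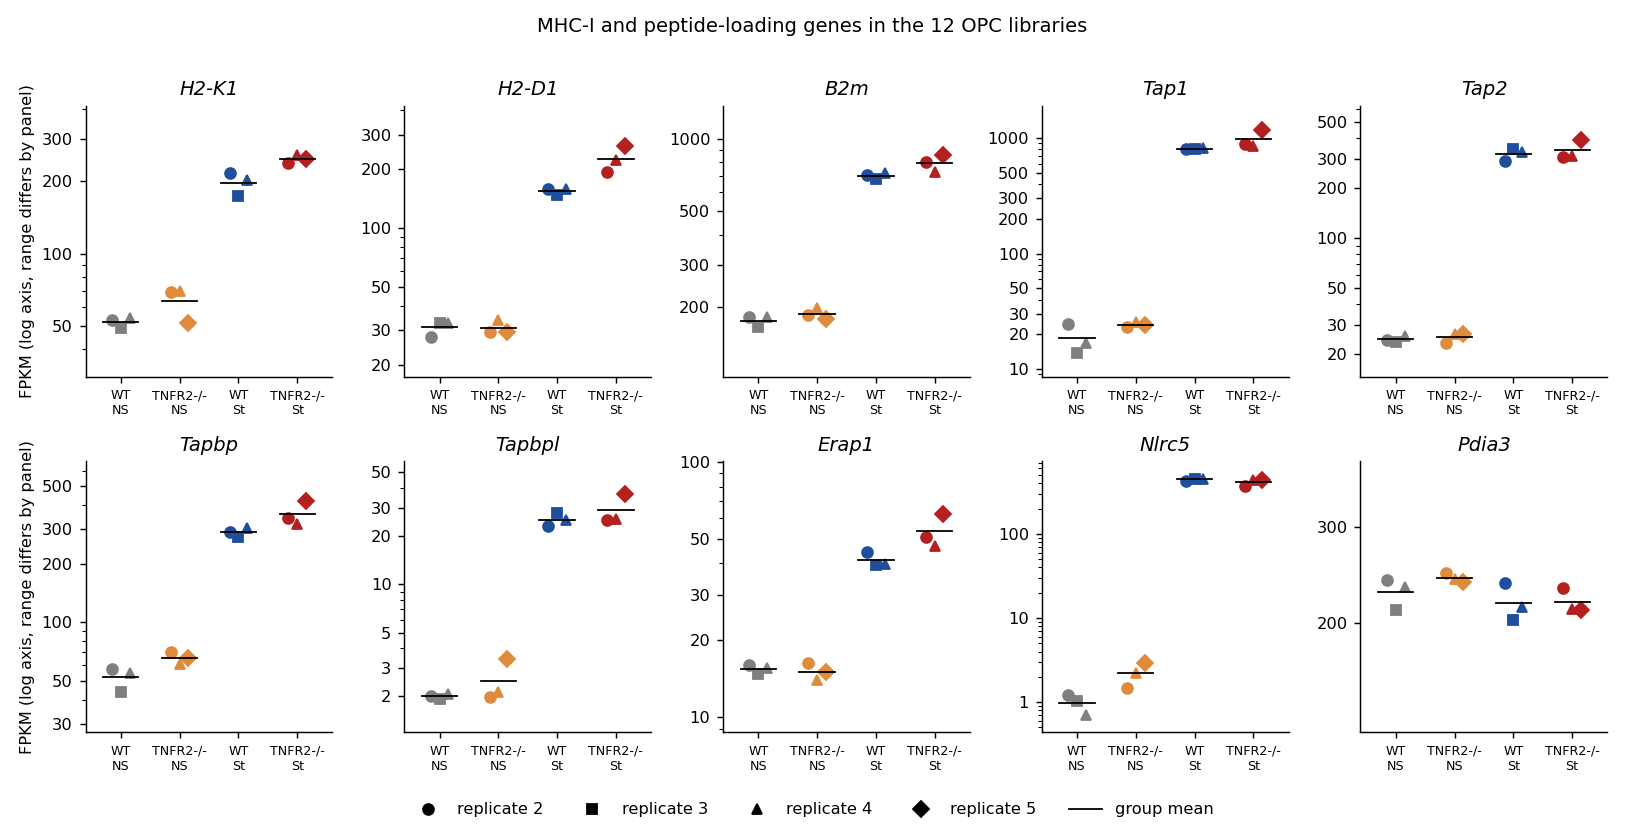
FPKM (log axis, with its own range in each panel) of the 10 genes in each of the 12 libraries, grouped by genotype and stimulation. Points are libraries, with a shape for each replicate number, and lines are group means of 3 libraries. In 9 panels every St library lies above every NS library, while the Pdia3 levels of the WT groups overlap.

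The heavy chains H2-K1 and H2-D1 (the H-2K and H-2D antigens) and the light chain B2m form the surface molecule. H2-K1 lies on the minus strand at chr17:33996017-34000347, H2-D1 on the plus strand at chr17:35262730-35267499 and B2m on the plus strand at chr2:122147686-122153083 (GRCm38, GENCODE annotation, all protein-coding). RefSeq promoter windows of 300 bases around the annotated transcription start were matched for 7 of the 10 genes. There was no entry for Tap2, Tapbpl and Nlrc5. The windows of the 3 genes of the surface molecule and that of Pdia3 are printed, and they were chosen with the changes known. H2-K1, H2-D1 and B2m rose 3.76-, 4.95- and 3.98-fold in WT and 3.90-, 7.22- and 4.20-fold in TNFR2-/-, and Pdia3 did not pass the test. A contrast between the printed windows is therefore no test of the motifs. All are GRCm38.p6, 5′ to 3′ on the gene's own strand, from chr17:34000298-34000597 (minus), chr17:35262844-35263143 (plus), chr2:122147437-122147736 (plus) and chr2:121413652-121413951 (plus). For H2-K1 the window nearer to the GENCODE start was taken from 2 in the table. Capitals mark matches on either strand to TTTCNNTT (a core shared by interferon-regulatory-factor sites), to the NF-kappaB consensus, to CCAAT (the Y box core) and to TGACG (the X2 box core).
H2-K1: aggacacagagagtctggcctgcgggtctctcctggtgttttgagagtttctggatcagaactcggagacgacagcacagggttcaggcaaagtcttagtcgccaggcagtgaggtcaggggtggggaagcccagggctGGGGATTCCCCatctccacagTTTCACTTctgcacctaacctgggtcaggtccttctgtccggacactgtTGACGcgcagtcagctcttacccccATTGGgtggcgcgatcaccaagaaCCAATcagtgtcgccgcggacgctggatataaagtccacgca
H2-D1: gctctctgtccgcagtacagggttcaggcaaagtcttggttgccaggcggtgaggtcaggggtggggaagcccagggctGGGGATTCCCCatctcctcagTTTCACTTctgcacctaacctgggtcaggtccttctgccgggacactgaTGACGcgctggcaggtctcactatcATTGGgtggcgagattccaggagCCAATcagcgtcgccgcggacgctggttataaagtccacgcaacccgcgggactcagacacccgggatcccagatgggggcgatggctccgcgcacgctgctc
B2m: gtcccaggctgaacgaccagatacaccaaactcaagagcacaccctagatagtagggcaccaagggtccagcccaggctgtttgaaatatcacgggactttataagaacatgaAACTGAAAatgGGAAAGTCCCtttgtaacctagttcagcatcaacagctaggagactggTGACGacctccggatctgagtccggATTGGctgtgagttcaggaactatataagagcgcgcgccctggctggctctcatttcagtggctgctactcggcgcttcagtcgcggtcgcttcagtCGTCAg
Pdia3: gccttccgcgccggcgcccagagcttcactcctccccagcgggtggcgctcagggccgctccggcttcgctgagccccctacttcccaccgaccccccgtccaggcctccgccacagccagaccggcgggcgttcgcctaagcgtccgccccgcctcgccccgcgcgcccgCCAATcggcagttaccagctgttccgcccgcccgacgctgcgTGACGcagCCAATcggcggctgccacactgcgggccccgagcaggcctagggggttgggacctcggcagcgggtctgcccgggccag
TTTCNNTT was present in 4 of the 7 windows (H2-K1, H2-D1, B2m and Erap1), against 23.9% of the 32851 promoter windows in the table. The NF-kappaB consensus was found in H2-K1, H2-D1 and B2m, and in 8.46% of all windows. Tap1 and Tapbp, which rose 43.8- and 5.59-fold in WT, had windows with no match to either of these. In H2-K1 and H2-D1 the NF-kappaB consensus matched at 2 positions that overlap within the same capitals. CCAAT was in 6 of the 7 (all but Erap1) and in 37.4% of all windows. TGACG was in 5 (H2-K1, H2-D1, B2m, Tap1 and Pdia3) and in 20.8% of all windows. The H2-K1 and H2-D1 windows matched at 211 of 239 aligned bases (88.3%). These are matches of letters in a window and were not tested as binding sites.

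H2-K1 measured 53.0, 49.1 and 53.8 FPKM in WT NS and 69.5, 70.0 and 51.5 FPKM in TNFR2-/- NS. After stimulation it measured 217, 173 and 202 FPKM in WT and 238, 258 and 248 FPKM in TNFR2-/-. Every St library was above every NS library, and the lowest TNFR2-/- St library was above the highest WT St library. The log2 rise was 1.91 ± 0.12 (SE, adjusted p = 1.26e-06, limma) in WT and 1.96 ± 0.12 (adjusted p = 8.76e-07) in TNFR2-/-.

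H2-D1 was lower than H2-K1 at rest when reads were scaled to exon length, as described further on. Its values were 27.7, 32.6 and 32.7 FPKM in WT NS and 29.2, 33.7 and 29.4 FPKM in TNFR2-/- NS. Under cytokines it reached 159, 148 and 158 FPKM in WT and 193, 224 and 263 FPKM in TNFR2-/-. The NS groups overlapped and the St groups did not. The log2 rise was 2.31 ± 0.11 (SE, adjusted p = 1.65e-07, limma) in WT and 2.85 ± 0.11 (adjusted p = 3.29e-08) in TNFR2-/-. Of the 100-base sequences in H2-D1 transcripts, 3.59% also occur in another gene, mostly H2-Q1, and for H2-K1 this share was 0.957%. A small part of the counts of the heavy chains could therefore have been split with related genes.

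B2m, the light chain that pairs with the heavy chains, had the smallest standard error of the 9 genes that rose. It measured 182, 165 and 182 FPKM in WT NS and 186, 199.7 and 179 FPKM in TNFR2-/- NS. The St values were 704, 683 and 721 FPKM in WT and 798, 728 and 854 FPKM in TNFR2-/-. All St libraries stood above all NS libraries, and the St groups did not overlap. The log2 rise was 1.99 ± 0.07 (SE, adjusted p = 1.64e-08, limma) in WT and 2.07 ± 0.07 (adjusted p = 1.35e-08) in TNFR2-/-.

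Tap1 and Tap2 encode the subunits of the heterodimer that pumps peptides into the endoplasmic reticulum. They are neighbours on the plus strand of chromosome 17, at chr17:34187553-34197225 and chr17:34203527-34216321, with 6301 bases between them. Tap1 measured 24.7, 13.8 and 17 FPKM in WT NS and 23.1, 25.5 and 24.3 FPKM in TNFR2-/- NS. In St libraries it measured 801, 806 and 815 FPKM in WT and 887, 850.2 and 1180.1 FPKM in TNFR2-/-. The spread in WT NS came from replicate 2, which lay within the range of the TNFR2-/- NS libraries. The rise was 43.8-fold (95% interval 33.2 to 57.8) in WT and 38.8-fold (29.4 to 51.2) in TNFR2-/-. On the log2 scale this was 5.45 ± 0.18 (SE, adjusted p = 1.07e-08, limma) and 5.28 ± 0.18 (adjusted p = 1.44e-08). By size of the rise, Tap1 ranked 45 of all genes tested in WT and 56 in TNFR2-/-.

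Tap2 rose less than Tap1 in every culture. It measured 24.3, 23.7 and 25.8 FPKM in WT NS and 23.3, 26.3 and 26.2 FPKM in TNFR2-/- NS. The St values were 293, 342 and 329.5 FPKM in WT and 309, 315 and 391 FPKM in TNFR2-/-. The genotypes overlapped both at rest and under cytokines. The rise was 12.8-fold in WT (log2 3.68 ± 0.10, SE, adjusted p = 3.19e-09, limma) and 13.1-fold in TNFR2-/- (log2 3.71 ± 0.10, adjusted p = 2.25e-09).

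Tapbp (tapasin) tethers empty MHC-I to TAP, and Tapbpl (TAPBPR) is its relative that edits peptides outside that complex. Tapbp lies at chr17:33915899-33929292 (plus), so that 5 of the 10 genes fall within 1.352 Mb of chromosome 17, while Tapbpl lies at chr6:125223933-125231860 (minus). Tapbp measured 57.3, 43.5 and 55.0 FPKM in WT NS and 70.6, 60.9 and 65.3 FPKM in TNFR2-/- NS. Its St values were 291, 275 and 305 FPKM in WT and 343, 318 and 419.9 FPKM in TNFR2-/-. The TNFR2-/- libraries were above the WT libraries in both conditions without overlap. The log2 rise was 2.48 ± 0.12 (SE, adjusted p = 1.92e-07, limma) in WT and 2.44 ± 0.12 (adjusted p = 1.97e-07) in TNFR2-/-.

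Tapbpl was at a low level at rest, with 2.03, 1.92 and 2.07 FPKM in WT NS and 1.99, 2.15 and 3.40 FPKM in TNFR2-/- NS. Under cytokines it measured 23.1, 27.7 and 25.1 FPKM in WT and 25.3, 25.4 and 36.5 FPKM in TNFR2-/-. Replicate 5 was the highest library of its group in both conditions, and the genotypes overlapped in both. The log2 rise was 3.36 ± 0.18 (SE, adjusted p = 4.19e-07, limma) in WT and 3.30 ± 0.18 (adjusted p = 4.50e-07) in TNFR2-/-.

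Erap1, at chr13:74639568-74693201 (plus), encodes the aminopeptidase that trims peptides to the length the groove accepts. Its NS values were 15.9, 14.8 and 15.5 FPKM in WT and 16.2, 14.0 and 15 FPKM in TNFR2-/-. With cytokines it measured 44.3, 39.5 and 39.8 FPKM in WT and 50.7, 46.7 and 62.7 FPKM in TNFR2-/-. The genotypes overlapped at rest and did not overlap under cytokines. This was the smallest of the 9 rises in both genotypes, at log2 1.39 ± 0.11 (SE, adjusted p = 6.10e-06, limma) in WT and 1.78 ± 0.11 (adjusted p = 7.33e-07) in TNFR2-/-.

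Nlrc5, at chr8:94434356-94527272 (plus), encodes the NLR-family activator that is recruited to the promoters of MHC-I genes, B2m and Tap1. It was at a low level at rest, with 28, 21 and 16 reads in WT NS and 34, 51 and 68 reads in TNFR2-/- NS. These correspond to 1.23, 1.03 and 0.704 FPKM in WT and to 1.49, 2.22 and 2.96 FPKM in TNFR2-/-. Stimulated libraries held between 8439 and 10344 reads, with 425, 455 and 451 FPKM in WT and 371, 437 and 442 FPKM in TNFR2-/-. The NS groups did not overlap, with TNFR2-/- higher, while the St groups did. The rise was 302-fold (95% interval 227 to 401) in WT and 157-fold (118 to 208) in TNFR2-/- on the FPKM + 0.5 scale, which understates the change of a gene this low at rest. On the log2 scale this was 8.24 ± 0.19 (SE, adjusted p = 8.46e-10, limma) and 7.29 ± 0.19 (adjusted p = 2.23e-09). Nlrc5 ranked 16 of all genes tested by size of the rise in WT and 24 in TNFR2-/-.

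Pdia3 (ERp57), at chr2:121413775-121438687 (plus), serves glycoprotein folding in general and also sits in the loading complex. Its NS values were 239.7, 211 and 233 FPKM in WT and 247, 241 and 238 FPKM in TNFR2-/-. Its St values were 237, 202 and 214 FPKM in WT and 232, 213 and 212 FPKM in TNFR2-/-. The WT groups overlapped, and the TNFR2-/- St libraries all lay just below the TNFR2-/- NS libraries. The log2 difference was -0.07 (95% interval -0.22 to 0.09, adjusted p = 0.611, limma) in WT and -0.15 (-0.30 to 0.01, adjusted p = 0.154) in TNFR2-/-. With the culture as a block the TNFR2-/- difference had an adjusted p of 0.0129, still under the fold change threshold.

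**Figure D2:**
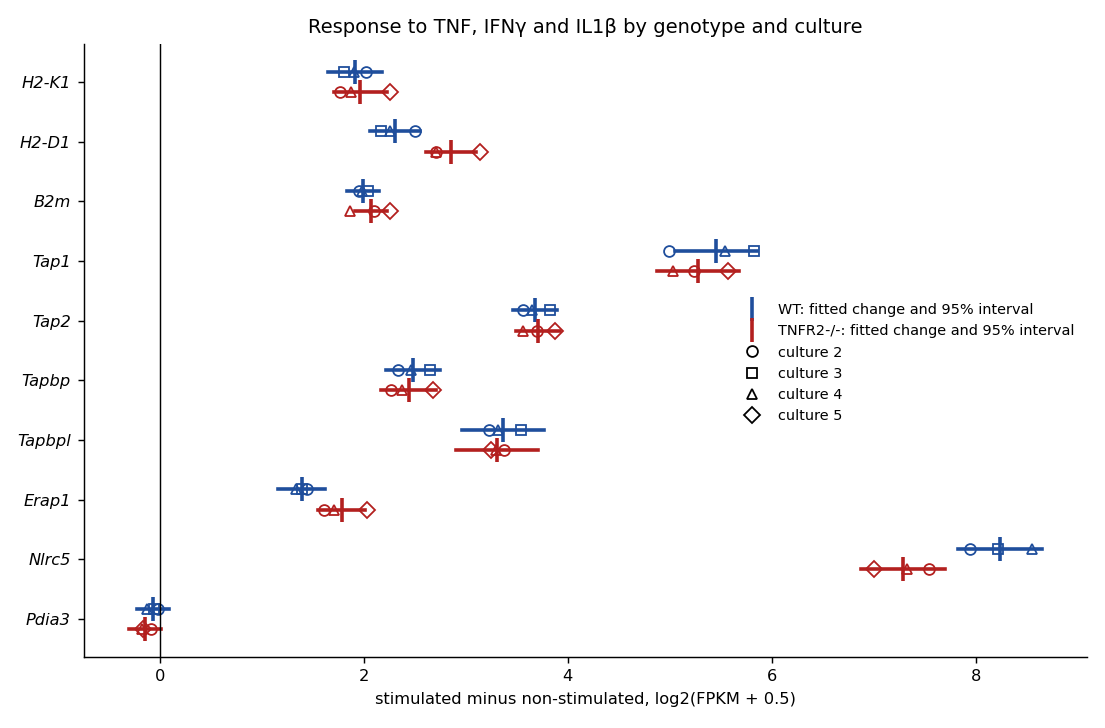
Change from non-stimulated to stimulated on the log2(FPKM + 0.5) scale for each gene, in WT (blue) and TNFR2-/- (red). Ticks are fitted changes with 95% intervals from limma, and open symbols are the 3 cultures of each genotype. Nlrc5 and Tap1 are farthest to the right, Pdia3 lies at 0, and the intervals of the genotypes overlap for every gene but H2-D1 and Nlrc5.

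Without cytokines, 1 of the 10 genes was called between the libraries labelled TNFR2-/- and the WT libraries. Nlrc5 was 1.80-fold higher in TNFR2-/- NS (95% interval 1.36 to 2.40), at log2 0.85 ± 0.19 (SE, adjusted p = 0.0242, limma). Of all genes tested, 2.9% were called in this comparison and 1.62% were called higher. The Nlrc5 call rests on 16 to 68 reads per library, and its adjusted p ranged from 0.0192 to 0.102 over the alternatives. The difference itself ranged from 0.66 to 1.14. Leaving out a single NS library ended the call in 3 cases: WT replicate 3 (0.88, adjusted p = 0.0855), WT replicate 4 (0.71, adjusted p = 0.0858) and TNFR2-/- replicate 5 (0.66, adjusted p = 0.0706). In the same fits the genes called among all those tested went from 524 to 49, 54 and 78.

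The other genes gave smaller differences at rest that did not pass. Tapbp differed by log2 0.34 ± 0.12 (SE, adjusted p = 0.0915, limma), with all 3 TNFR2-/- libraries above all 3 WT libraries. Tap1 differed by 0.43 ± 0.18 (adjusted p = 0.142) and was called without WT NS replicate 2 (0.65, adjusted p = 0.0274). H2-K1 differed by 0.28 ± 0.12 (adjusted p = 0.146), with TNFR2-/- NS replicate 5 inside the WT range. For H2-D1, B2m, Tap2, Erap1 and Pdia3 the fitted differences lay between -0.03 and 0.09. Tapbpl differed by 0.24 ± 0.18 (adjusted p = 0.417). The groups did not overlap for 2 of the 10 genes, Tapbp and Nlrc5, where 34.2% of all genes did not overlap, or 19.9% with TNFR2-/- higher. The median difference was 0.16 on the log2 scale for the 10 genes and 0.04 for all genes tested.

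Under cytokines none of the 10 genes was called between genotypes, where limma called 1.8% of all genes and 1.18% as higher. Voom on recovered read counts called 0 of the 10 as well, where it called 436 of all genes. In limma, 5 of the 10 had an unadjusted p under 0.05, as did 26.7% of all genes. H2-D1 came nearest: it was 1.45-fold higher in TNFR2-/- St (95% interval 1.22 to 1.71), at log2 0.53 ± 0.11 (SE, adjusted p = 0.0298), which is under the fold change threshold. Over the alternatives the H2-D1 difference ranged from 0.42 to 0.64 and its adjusted p from 0.015 to 0.114. It passed every threshold without TNFR2-/- St replicate 2 (0.64, adjusted p = 0.0301), and its adjusted p was 0.0898 without TNFR2-/- St replicate 5 (0.42). Leaving out WT St replicate 2, 3 or 4 gave H2-D1 differences of 0.55, 0.50 and 0.55, with adjusted p values of 0.059, 0.114 and 0.0942. In these 3 fits the genes called among all those tested went from 325 to 195, 49 and 39. They went to 127 without TNFR2-/- St replicate 2 and to 71 without TNFR2-/- St replicate 5.

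Erap1 differed by log2 0.36 ± 0.11 (SE, adjusted p = 0.0684, limma), H2-K1 by 0.33 ± 0.12 (adjusted p = 0.112) and Tapbp by 0.30 ± 0.12 (adjusted p = 0.150). B2m differed by 0.17 ± 0.07 (adjusted p = 0.150) and Tap1 by 0.25 ± 0.18 (adjusted p = 0.400). In these 5 genes and in H2-D1 all 3 TNFR2-/- St libraries were above all 3 WT St libraries, which makes 6 of 10, where 32.7% of all genes did not overlap in either direction and 15.4% did so with TNFR2-/- higher. Tap2 (0.07), Tapbpl (0.18), Nlrc5 (-0.10) and Pdia3 (0.01) overlapped. TNFR2-/- St replicate 5 was the highest of the 6 St libraries for 7 of the 10 genes. The share over all genes was not counted, so whether this is particular to the 10 genes was not tested. The median difference was 0.22 for the 10 genes and -0.003 for all genes tested. With 3 cultures a group, an exact permutation test of any 1 gene cannot give a p below 0.1.

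Markers of astrocytes moved with genotype in the same libraries. All 8 astrocyte markers were detected in every library, and none was at 0. Their summed level was 7599 to 8503 FPKM in WT NS and 10612 to 15747 FPKM in TNFR2-/- NS. In St libraries it was 7217 to 7386 FPKM in WT and 9886 to 14777 FPKM in TNFR2-/-. Most of the sum in WT NS came from Slc1a3 (4013 to 4713 FPKM) and Aldoc (2948 to 3177 FPKM). Of the 8, Gja1 was called higher at rest (0.92, adjusted p = 0.037, limma), and Slc1a2 (1.01, adjusted p = 0.0451) and Slc1a3 (0.69, adjusted p = 0.0116) under cytokines. The median difference of the astrocyte list was 0.78 at rest and 0.80 under cytokines. Markers of mural cells and fibroblasts summed to 234 to 728 FPKM in WT NS, 112 to 437 FPKM in TNFR2-/- NS, 271 to 637 FPKM in WT St and 75.0 to 366 FPKM in TNFR2-/- St. Acta2 alone measured 177 to 623 FPKM in WT NS. Of this list 6 markers were tested, and none was called between genotypes in either condition. The list median was -0.77 at rest and -1.22 under cytokines. Of the 10 OPC markers, Pdgfra (-0.60, adjusted p = 0.0488, limma) and Lhfpl3 (-0.59, adjusted p = 0.0388) were called lower in TNFR2-/- St than in WT St. The other 8 were not called, and the median of the OPC list was -0.0005. Of the 6 endothelial markers tested, Esam (-1.76, adjusted p = 0.0338) was called lower there, on 3 to 12 reads against 26 to 33. The other 5 were not called, and the median of the endothelial list was -0.08. The part of all these markers in the genotype differences of the 10 genes was not tested.

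**Figure D3:**
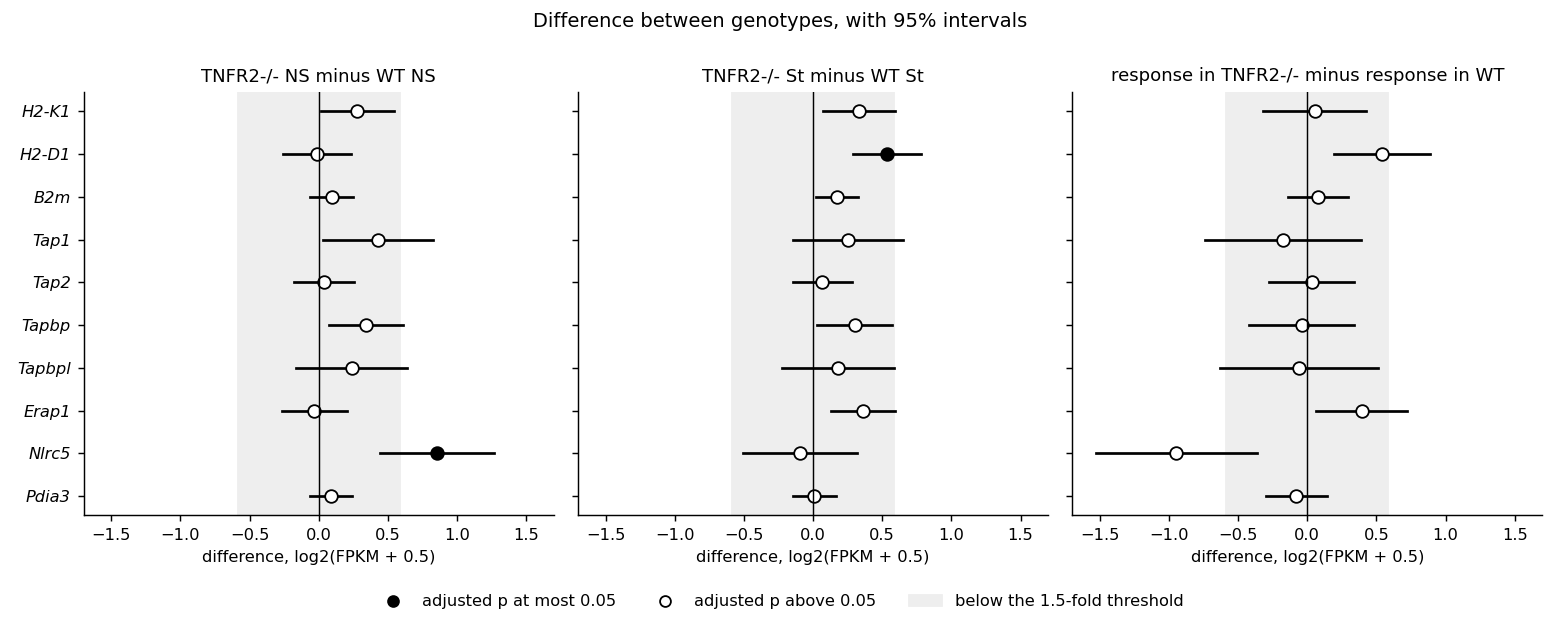
Difference between genotypes at rest (left), under cytokines (middle) and in the response (right), on the log2(FPKM + 0.5) scale, with 95% intervals from limma. Filled points have an adjusted p of at most 0.05, and the grey band lies below the 1.5-fold threshold. Nlrc5 at rest is the only filled point outside the band, H2-D1 under cytokines is filled inside it, and no point is filled in the right panel.

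The response itself was compared between genotypes by the interaction of genotype and stimulation. None of the 10 genes was called, where limma called 0.00553% of all genes. Voom called 0 of all genes tested, so its lack of calls says nothing particular of the 10. In limma, 3 of the 10 had an unadjusted p under 0.05, as did 7.95% of all genes. These 3 were Nlrc5, H2-D1 and Erap1. Nlrc5 rose by 7.94, 8.22 and 8.55 on the log2 scale in the WT cultures and by 7.54, 7.33 and 7.0 in the TNFR2-/- cultures. The difference was -0.95 ± 0.26 (SE, adjusted p = 0.496, limma), with the higher NS level of the TNFR2-/- libraries entering it.

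H2-D1 rose by 2.50, 2.17 and 2.26 in WT cultures and by 2.70, 2.71 and 3.14 in TNFR2-/- cultures. The difference was 0.54 ± 0.16 (SE, adjusted p = 0.496, limma). Erap1 rose by 1.45, 1.39 and 1.33 in WT cultures and by 1.61, 1.71 and 2.03 in TNFR2-/- cultures, a difference of 0.39 ± 0.15 (adjusted p = 0.564). In each of the 3 genes the cultures of the genotypes did not overlap, as was so for 28.1% of all genes. With the culture as a block within genotype, the adjusted p was 0.102 for Nlrc5, 0.126 for H2-D1 and 0.14 for Erap1. The other 7 genes had differences between -0.17 and 0.08, and the widest of their intervals was that of Tapbpl, from -0.63 to 0.51. The comparisons share libraries: the NS libraries enter both the response and the difference at rest.

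Levels of different genes were compared as FPKM recomputed from recovered read pairs and annotated exon length, because the deposited FPKM did not follow annotated gene length. At rest the order in WT was Pdia3 (166.6 ± 10.8 FPKM by exon length, SD over 3 libraries), B2m (106 ± 5.88), H2-K1 (14.6 ± 0.701), H2-D1 (11.8 ± 1.08), Tapbp (6.07 ± 0.865), Erap1 (3.88 ± 0.151), Tap2 (2.27 ± 0.098), Tap1 (1.34 ± 0.406), Tapbpl (0.826 ± 0.0314) and Nlrc5 (0.0882 ± 0.0237). No neighbours in that order overlapped between libraries, and TNFR2-/- NS had the same order. After stimulation B2m stood above Pdia3 in both genotypes, at 423 ± 11.4 in WT St and 478 ± 38.2 in TNFR2-/- St.

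Tap1 and Nlrc5 moved up the order. In WT St, H2-D1 (59.1 ± 2.31), Tap1 (58.5 ± 0.499) and H2-K1 (55.4 ± 6.31) overlapped with each other, followed by Nlrc5 (39.6 ± 1.43), Tapbp (34.0 ± 1.75) and Tap2 (29.6 ± 2.37). Tapbpl (10.4 ± 0.947) and Erap1 (10.4 ± 0.671) came last and overlapped. In TNFR2-/- St, H2-D1 (86.2 ± 13.4) overlapped with Tap1 (70.5 ± 13.1), and Tap1 with H2-K1 (69.6 ± 2.79). Tapbp (42.1 ± 6.20) overlapped with Nlrc5 (37.2 ± 3.54), Nlrc5 with Tap2 (31.1 ± 4.24), and Erap1 (13.4 ± 2.10) with Tapbpl (12 ± 2.64).

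**Figure D4:**
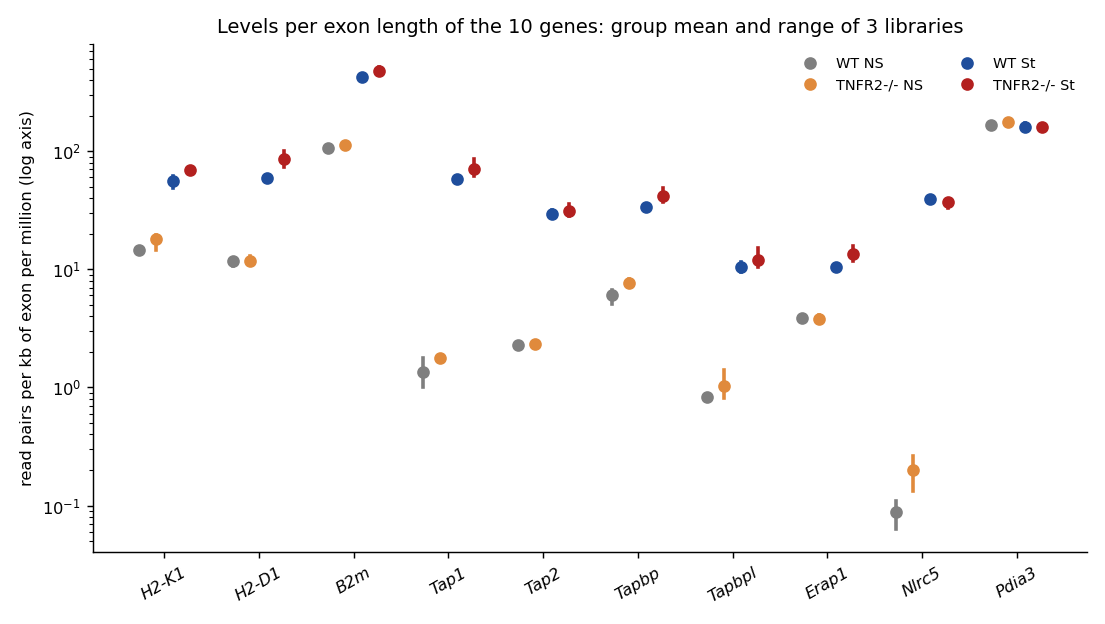
FPKM recomputed from recovered read pairs and annotated exon length (log axis) for the 10 genes in the 4 groups. Points are means of 3 libraries and bars run from the lowest to the highest library. Nlrc5 moves from below 0.3 at rest to above 30 after stimulation, and with these lengths Tap1 passes Tap2.

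Ratios between related genes were compared over the groups. By exon length, the ratio of Tap1 to Tap2 in NS libraries was 0.592 ± 0.182 for WT and 0.759 ± 0.0259 for TNFR2-/- (SD over 3 libraries). It was 1.99 ± 0.154 in WT St and 2.25 ± 0.124 in TNFR2-/- St. By this measure Tap1 was the lower of the pair in every NS library and the higher in every St library. Which gene is higher at rest depends on the length used, here the union of all annotated exons (5476 bases for Tap1, 3781 for Tap2). In reads, Tap1 had 294 and Tap2 254 in WT NS replicate 2, but 147 and 222 in WT NS replicate 3. The change of the ratio between NS and St does not depend on that length. H2-D1 was 0.811 ± 0.0956 of H2-K1 in WT NS and 0.665 ± 0.102 in TNFR2-/- NS, against 1.07 ± 0.0848 in WT St and 1.24 ± 0.177 in TNFR2-/- St. The NS and St libraries did not overlap in this ratio in either genotype. B2m stood above the sum of the heavy chains in every group, with overlapping NS and St libraries in WT, at a ratio of 4.03 ± 0.256 in WT NS, 3.85 ± 0.303 in TNFR2-/- NS, 3.71 ± 0.214 in WT St and 3.08 ± 0.324 in TNFR2-/- St. These ratios are between transcripts and say nothing of protein.

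Other genes of the pathway were counted over whole lists of related genes. All 5 genes of the immunoproteasome and its PA28 activator, which make the peptides, were called higher in both genotypes. Their largest rises were those of the catalytic subunits Psmb8 (3.65 in WT and 3.45 in TNFR2-/-) and Psmb9 (3.43 and 3.59). Psmb9 was also higher in TNFR2-/- St than in WT St (0.69, adjusted p = 0.0453, limma). The median change of this list was 1.93 in WT and 1.71 in TNFR2-/-.

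Of 6 cytosolic peptidases, only the leucine aminopeptidase Lap3 was called, at 0.91 in WT and 0.84 in TNFR2-/-, and the list median was 0.05 and 0.03. Among 10 general chaperones and translocation factors of the endoplasmic reticulum, such as Calr and Canx, limma called 0 in each of the 5 comparisons, with list medians of -0.02 in WT and -0.10 in TNFR2-/- for stimulation.

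Of 15 transcriptional regulators of MHC-I, 9 were called higher and 1 lower in each genotype. Irf1, an interferon-induced factor, rose by 7.28 in WT and 6.69 in TNFR2-/- on the log2 scale. Stat2, a factor of the type I interferon response, rose by 3.63 and 3.51. Rfxank, a subunit of the RFX complex that binds the X box, fell by 0.77 in WT and fell by 0.97 in TNFR2-/- (named after its values were seen). Between genotypes, Irf1 was higher in TNFR2-/- NS (0.66, adjusted p = 0.0188, limma), as Nlrc5 was, and Rfxap was lower in TNFR2-/- St (-0.65, adjusted p = 0.0416). The list median was 1.49 in WT and 1.46 in TNFR2-/-.

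Of 10 nonclassical heavy chains, 8 were tested and 4 were called higher in each genotype: H2-Q4 (4.33 in WT and 4.89 in TNFR2-/-), H2-Q6 (1.78 and 2.45), H2-Q7 (1.66 and 2.03) and H2-T23 (1.36 and 2.13). H2-T23, which presents a conserved signal peptide to NK receptors, was higher in TNFR2-/- St than in WT St (0.96, adjusted p = 0.0218, limma). H2-Q4 was also higher there (0.68, adjusted p = 0.0218). Over the 12 libraries H2-T23 averaged 1.23 FPKM and H2-Q6 averaged 1.33 FPKM, close to the 1 FPKM cutoff for a call. The list median was 0.92 in WT and 1.36 in TNFR2-/-. These genes are closely related in sequence, so their counts are uncertain where reads could be shared.

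The genes whose pattern was most like the surface molecule were ranked by Pearson correlation over the 12 libraries with the mean standardised level of H2-K1, H2-D1 and B2m. The 5 closest were Nfkb2 (0.9975), Ripk2 (0.9973), Gbp5 (0.9973), H2-Q4 (0.9972) and Relb (0.9972), while 458 genes reached 0.95 or more. Libraries of 1 group share stimulation and genotype, so these values mostly describe the step between NS and St. Nfkb2, for example, averaged 5.99 FPKM in WT NS, 6.75 in TNFR2-/- NS, 36.2 in WT St and 44.9 in TNFR2-/- St.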

How the data were processed

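RNA-seq was done on 12 OPC libraries, 3 in each of 4 groups. Per the labels, the submitters' tools were Trim Galore, STAR and edgeR on the GRCm38 build. The deposited values are FPKM per gene and library, in a table for NS and a table for St libraries, each with 45792 entries. The 229 entries under 99 repeated symbols were left out. Whole read pairs were recovered by a common divisor per gene across both tables: 26636 of 26636 genes above 0 in at least 2 libraries came out whole within 0.01 read. The tables thus share a scale, and library totals ran from 26886878 to 30335265 read pairs, which left Nlrc5 with 16 to 68 reads at rest. Intervals come from the spread between libraries.

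Groups were taken from the labels. limma 3.58.1 (R 4.3.3) was fitted to log2(FPKM + 0.5) of all 12 libraries, with 4 group means and a mean-dependent prior, for every gene averaging 0.1 FPKM or more. Fold changes are on that scale and understate the change of low genes. Because the deposited FPKM did not follow annotated gene length, the offset of 0.5 and the cutoffs of 0.1 and 1 FPKM stand for different read numbers in different genes. The model fit was tested on simulated data. Same-numbered NS and St libraries of a genotype deviated together (6 pairs, correlations 0.34 to 0.65 over 13554 genes), so the numbers were taken as cultures. The main fit nevertheless treated the NS and St libraries of a culture as independent. Across genotypes the same number gave -0.08 to 0.20. Alternatives were other pseudocounts, filters, scalings, designs and voom on recovered reads, and leaving out each library. The 10 genes and all lists were chosen with earlier results of these data known. Named genes are the 10, up to 3 called genes of a list in each comparison by size of change, the 5 genes most like the surface molecule, and Tnfrsf1b. A gene and a motif that the rules would name are not reported here. Promoters are from RefSeq.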

Additional observations from a re-analysis of the deposited data

How the results depend on the processing

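The 9 genes that rose with stimulation were called in both genotypes under every alternative run. Of the single values, 1083 kept their direction and side of the threshold, 5 lost the call, 2 gained it and 30 changed sign; the cause was not tested. Between NS genotypes, 1 gene was called with all libraries, 0 in a fit over the 6 libraries compared, 0 with voom on recovered reads, and 0 to 2 when 1 library was left out. Over all genes these counts were 524, 7, 623 and 49 to 953. Between St genotypes the count was 0, it was 1 with adjusted p alone (H2-D1), and it ran from 0 to 1 when 1 library was left out. Over all genes these counts were 325, 985 and 39 to 462, and a fit over the 6 St libraries compared called 49 of all genes.

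The culture as a replicate block left the counts at 9 in WT, 9 in TNFR2-/- and 0 for the interaction, and the replicate block by number left 1 at rest and 0 under cytokines. Neither block changed a call, and the adjusted p of Pdia3 under the block is given above. For the interaction, a block within genotype gave -0.95 for Nlrc5 with an adjusted p of 0.102.

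The sign changes were all in values that were not called, the largest of them the Tap1 interaction, at -0.17 with all libraries. Leaving out 1 library gave, at rest, -0.0872 to 0.0299 for H2-D1 and -0.0863 to 0.0188 for Erap1. Under cytokines it gave -0.0414 to 0.129 for Tap2 and -0.0415 to 0.0707 for Pdia3. In the interaction it gave -0.0900 to 0.13 for H2-K1, -0.399 to 0.0104 for Tap1, -0.0779 to 0.0927 for Tap2, -0.157 to 0.0803 for Tapbp and -0.23 to 0.143 for Tapbpl. Other settings turned Tap2 at rest (-0.0047 with median-of-ratios scaling, -0.015 with quantile normalization, -0.0212 with the block by number) and Pdia3 under cytokines (-0.0257 with the block by number). They also turned the interaction of Tapbp (0.017 with median-of-ratios scaling, 0.0214 with quantile normalization) and of Tapbpl (0.0091 with quantile normalization).

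With 3 cultures a group, the intervals of the genotype differences are wide.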
